A study of Mus musculus with 36 samples.

Results

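The comparison described here set CD4 T cells of wild-type (WT) mice after 7 days in T helper 2 (Th2) culture against naive CD4 T cells, by counting microRNAs (miRNAs) with small RNA sequencing. It uses the 4 libraries titled as WT Th2 cells at day 7 and the 4 titled as sorted WT naive cells, 8 of the 36 libraries of the series. All 8 came from C57BL/6J mice with no knocked-out gene, and from spleen cells that were sorted by flow cytometry for CD4 and the T cell receptor beta chain. The naive libraries were taken at day 0, and the Th2 libraries after activation and polarisation in vitro. The study as a whole asked how Argonaute (AGO) proteins, which hold miRNAs on their target RNAs, shape type 2 immunity. Its other libraries come from AGO134 knockout cells, which lack AGO1, AGO3 and AGO4 together (naive, day 7 and day 14), from WT cells at day 14, and from CD4Cre;R26LSLeYFP cells (Cre recombinase driven by the Cd4 promoter, with a Cre-activated yellow reporter) with or without floxed Ago2 alleles. The day 7 and naive groups differ in culture, stimulation and time at once, and the data do not separate these. The labels do not say whether replicates are separate animals, so each p-value reflects only a spread among libraries, which may be technical. For miRNAs, seeds, arms and the knockout difference, that spread was estimated over 22 libraries of 6 groups, among them knockout and day 14 cells. The comparison with Cre cells used all 36 libraries, and the diversity tests used the 8 alone. The labels also name single-end reads where the series text names paired-end reads.

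A miRNA is cut from a hairpin in a longer transcript, and either strand of the hairpin, the 5p arm or the 3p arm, can be loaded into an Argonaute protein while the partner is lost. The loaded strand pairs with messenger RNAs mainly through its seed, bases 2 to 8, so that miRNAs with one seed can act on the same sites. T cells need miRNAs to keep a stable fate, and activation changes which of them are made and how long they last. Resting T cells are known for miR-150 and the miR-181 family, and activated cells for miR-21, miR-155 and the miR-17-92 cluster.

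The mature sequences below are those on which the results turn. They come from RefSeq on GRCm38, are written 5′ to 3′, and carry the seed in capitals. The guide strands of the miR-181 family share the seed ACAUUCA, and the partner strands of the 2 miR-181a hairpins differ from each other, which lets the 2 loci be told apart.
miR-181a-5p: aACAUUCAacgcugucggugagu
miR-181b-5p: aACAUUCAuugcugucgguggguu
miR-181c-5p: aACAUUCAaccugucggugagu
miR-181d-5p: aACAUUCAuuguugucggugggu
miR-181a-1-3p: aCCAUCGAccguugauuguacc
miR-181a-2-3p: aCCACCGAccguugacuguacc
The cluster of miR-183, miR-96 and miR-182, which was abundant and rose, makes 3 guide strands with related seeds.
miR-183-5p: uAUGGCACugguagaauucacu
miR-96-5p: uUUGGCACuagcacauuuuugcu
miR-182-5p: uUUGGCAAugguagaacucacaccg
The family of miR-130 and miR-301 (seed AGUGCAA) and that of miR-148 and miR-152 (seed CAGUGCA) overlap by 6 seed bases.
miR-130b-3p: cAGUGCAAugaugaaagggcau
miR-301a-3p: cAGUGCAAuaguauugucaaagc
miR-148a-3p: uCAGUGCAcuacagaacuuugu
miR-148b-3p: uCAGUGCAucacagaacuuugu
miR-152-3p: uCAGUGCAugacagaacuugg
The next sets are shown because strands with one seed moved in opposite directions.
miR-125a-5p: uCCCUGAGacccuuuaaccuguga
miR-125b-5p: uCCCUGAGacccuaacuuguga
miR-351-5p: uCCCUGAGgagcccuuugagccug
miR-146a-5p: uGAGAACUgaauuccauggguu
miR-146b-5p: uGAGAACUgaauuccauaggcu
miR-132-3p: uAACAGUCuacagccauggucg
miR-212-3p: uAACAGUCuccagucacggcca
miR-30e-5p: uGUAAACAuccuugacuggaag
miR-30c-5p: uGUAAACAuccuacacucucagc
The last set holds single strands with large changes or high levels.
miR-211-5p: uUCCCUUUgucauccuuugccu
miR-210-3p: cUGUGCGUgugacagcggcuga
miR-34a-5p: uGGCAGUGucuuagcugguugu
miR-21a-5p: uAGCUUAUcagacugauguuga
miR-363-3p: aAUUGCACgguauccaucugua
miR-25-3p: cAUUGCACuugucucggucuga
miR-23a-3p: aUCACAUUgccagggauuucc
miR-27a-3p: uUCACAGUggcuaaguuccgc
miR-24-3p: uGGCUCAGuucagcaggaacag
let-7a-5p: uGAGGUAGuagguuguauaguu
let-7i-5p: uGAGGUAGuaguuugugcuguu

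The day 7 libraries held 215215 to 273724 miRNA counts and the naive libraries 196357 to 243748. They detected 665 to 719 and 605 to 642 of the 1966 mature names. Levels are in CPM, counts divided by the library total and set to the usual common total, after TMM normalisation, which assumes that most miRNAs keep their share. The 4 values of a group are given in the order of replicates 1 to 4. A count of 0 allows up to 3 counts, or 11.0 to 13.9 CPM per day 7 library and 12.3 to 15.3 CPM per naive library before TMM. That limit covers counting error only. Entries named STD, which name no miRNA and which the labels do not explain, took 35.7% to 37.7% of all counts at day 7 and 40.2% to 43.9% in naive cells. There were 133 to 146 miRNA counts per 100 STD counts at day 7 and 95.8 to 112 in naive cells, so that scaling to the STD entries moved the median log2 fold change of all tested miRNAs to 0.73, against 0.11 with TMM. Scaling by library size alone gave 0.29. Every change below is on the TMM scale, which rescales shares of the miRNA pool by 1 factor per library. It does not measure copies per cell. The factors were 1.12 to 1.23 for day 7 libraries and 0.957 to 1.10 for naive libraries. A change on this scale can thus differ from the change in share, as for let-7i-5p (mean share 2.74% at day 7, 2.57% in naive cells, log2 fold change -0.09). The value after ± is the SE for a log2 fold change and the SD for a level. With bulk RNA, fewer cells that make a miRNA and less of it per cell cannot be told apart.

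The miRNA content of day 7 cells differed from that of naive cells across most of the measured set. Of 382 miRNAs that passed the filter on low counts, edgeR's quasi-likelihood test called 292 at a Benjamini-Hochberg adjusted p under 0.05, which is 76.4%. Of these, 151 (39.5%) rose and 141 (36.9%) fell. A change of at least 2-fold was called upward for 115 (30.1%) and downward for 86 (22.5%). For 285 miRNAs (74.6%) the 4 day 7 values and the 4 naive values did not overlap. Scaled to the STD entries, 200 were called higher and 70 lower, so the balance of rises and falls depends on the scaling.

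**Figure D1:**
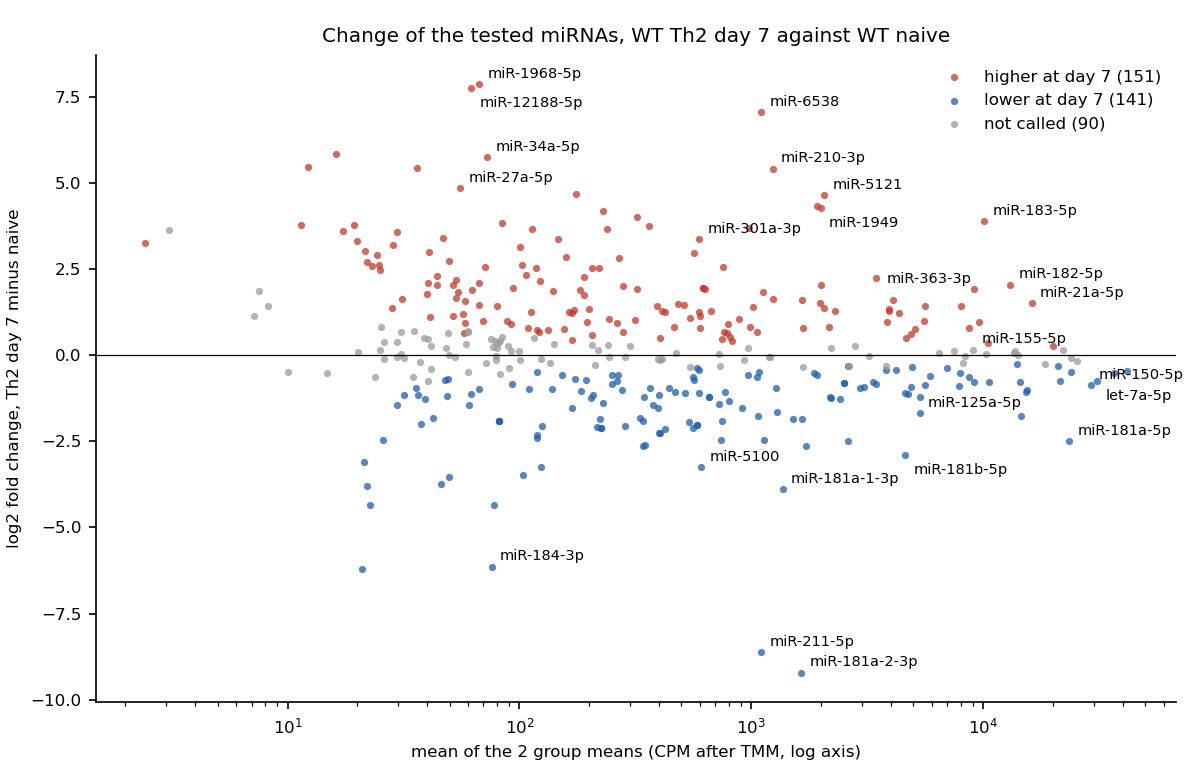
Log2 fold change (day 7 minus naive) of each of the 382 tested miRNAs against its mean level in CPM on a log axis; red marks miRNAs called higher at day 7, blue those called lower and grey those not called. miR-181a-2-3p and miR-211-5p lie at -9.21 and -8.63, while miR-183-5p reaches 3.88 at the high end of the level axis.

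The counts were also spread over more miRNAs at day 7. The 10 most abundant took 30.6%, 28.03%, 28.8% and 28.7% of miRNA counts at day 7, against 32.8%, 35.0%, 35.0% and 37.9% in naive cells. It took 20, 23, 23 and 22 miRNAs to make up 50% of the counts at day 7, against 19, 18, 18 and 16 in naive cells. The Shannon index, which grows as counts spread over more miRNAs, was 6.65 ± 0.08 bits at day 7 and 6.43 ± 0.09 bits in naive cells (SD, n = 4 each). None of these 3 measures overlapped between the groups, and each gave p = 0.0286 in a two-sided exact permutation test, the smallest that 4 against 4 allows (70 arrangements); thinning every library to 196357 counts changed none of the p-values.

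In naive cells the 10 most abundant miRNAs were miR-26a-5p, let-7f-5p, miR-181a-5p, let-7a-5p, miR-150-5p, miR-191-5p, miR-25-3p, let-7c-5p, let-7i-5p and let-7g-5p. At day 7 miR-181a-5p, miR-191-5p, let-7c-5p and let-7g-5p were no longer among the first 10, and miR-21a-5p, miR-16-5p, miR-27b-3p and miR-182-5p were. miR-26a-5p, which is known to act on the histone methyltransferase Ezh2, led both groups at 41473, 29673, 32615 and 35828 CPM in the day 7 libraries, against 45003, 50463, 43412 and 55128 CPM in the naive libraries (log2 fold change -0.47 ± 0.15, adjusted p = 0.00542 by edgeR). miR-191-5p stood at 19902 ± 1301 CPM at day 7 and 27768 ± 4552 CPM in naive cells (SD, n = 4 each; log2 fold change -0.48 ± 0.14, adjusted p = 0.00292 by edgeR). The fall of both lost its call with DESeq2 size factors (adjusted p = 0.0839 for miR-26a-5p and 0.0553 for miR-191-5p by edgeR), and both values turned positive with STD scaling. Both calls were also lost with DESeq2 and with all locus entries kept (-0.39 to -0.30).

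The miRNAs of resting T cells and of T cell receptor tuning fell as a group. Of 18 tested members, 15 were called lower and 1 higher, beside 36.9% and 39.5% of all tested miRNAs, and their median log2 fold change was -0.99 against 0.11 for all tested. With STD scaling 9 were still called lower. miR-150-5p, which restrains the transcription factor Myb in mature lymphocytes, had 21867, 20839, 19361 and 20158 CPM in the day 7 libraries, against 34451, 35456, 37524 and 43315 CPM in the naive libraries (log2 fold change -0.87 ± 0.15, adjusted p = 6.65e-06 by edgeR). The groups lay clear of each other, but the fall lost its call with STD scaling (-0.25, edgeR adjusted p = 0.0665). Its partner strand miR-150-3p fell too (5552 CPM at day 7, 10256 CPM in naive cells, log2 fold change -0.89) and lost its call with STD scaling (-0.28). miR-342-3p, from within Evl, fell by 0.79 and also lost its call with STD scaling (-0.17), while miR-101a-3p, another strand known to act on Ezh2, fell by 1.85. miR-101b-3p was the one member that rose (598 CPM at day 7, 252 CPM in naive cells, log2 fold change 1.26). miR-142a-5p, a strand that marks blood cells, and miR-140-5p did not pass (log2 fold changes -0.23 and -0.05).

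Of the 10 most abundant naive miRNAs, miR-181a-5p fell most. Its family raises the sensitivity of the T cell receptor by lowering phosphatases that dampen its signal. miR-181a-5p had 7818, 6833, 6582 and 6979 CPM in the day 7 libraries, against 36555, 38891, 38107 and 46582 CPM in the naive libraries (log2 fold change -2.51 ± 0.16, adjusted p = 6.15e-14 by edgeR). miR-181b-5p had 1174, 1093, 1024 and 1083 CPM in the day 7 libraries, against 8381, 8149.98, 7859 and 8184 CPM in the naive libraries (log2 fold change -2.90 ± 0.12, adjusted p = 3.34e-18 by edgeR). Neither overlapped between the groups. miR-181c-5p (481 CPM at day 7, 2977 CPM in naive cells, log2 fold change -2.63) and miR-181d-5p (627 CPM at day 7, 1960.4 CPM in naive cells, log2 fold change -1.64) fell as well. The 4 strands of the shared seed made up 1.11, 1.09, 1.08 and 1.08% of miRNA counts at day 7, against 5.53, 5.41, 5.49 and 5.68% in naive cells.

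The partner strands of this family separated its loci, since miR-181a-5p is made from hairpins on chromosomes 1 and 2. The partner strand of the chromosome 2 hairpin, miR-181a-2-3p (chr2:38852785-38852806, with no host gene found on its own strand), was nearly lost. It had 0, 12.7, 3.004 and 3.09 CPM in the day 7 libraries, against 3323, 2998, 3500.1 and 3283 CPM in the naive libraries. These are 6 counts in all at day 7 and 3076 in naive cells (log2 fold change -9.21, edgeR adjusted p = 2.03e-19). The partner strand of the chromosome 1 hairpin, miR-181a-1-3p (chr1:137966508-137966529, within Gm4258), had 175, 156, 180.2 and 182.1 CPM in the day 7 libraries, against 3233, 3029, 2029.9 and 1926 CPM in the naive libraries (log2 fold change -3.88 ± 0.19, adjusted p = 8.98e-17 by edgeR). At day 7 the chromosome 1 strand was therefore the more abundant of the 2 in all 4 libraries, while in naive cells the chromosome 2 strand was higher in replicates 1, 3 and 4. In naive cells the chromosome 1 strand was higher in replicates 1 and 2 than in replicates 3 and 4, a split that miR-181a-2-3p did not show. miR-181d-3p from chromosome 8 (chr8:84178720-84178740, within Nanos3) fell as well (16.6 CPM at day 7, 189.7 CPM in naive cells, log2 fold change -3.47).

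**Figure D2:**
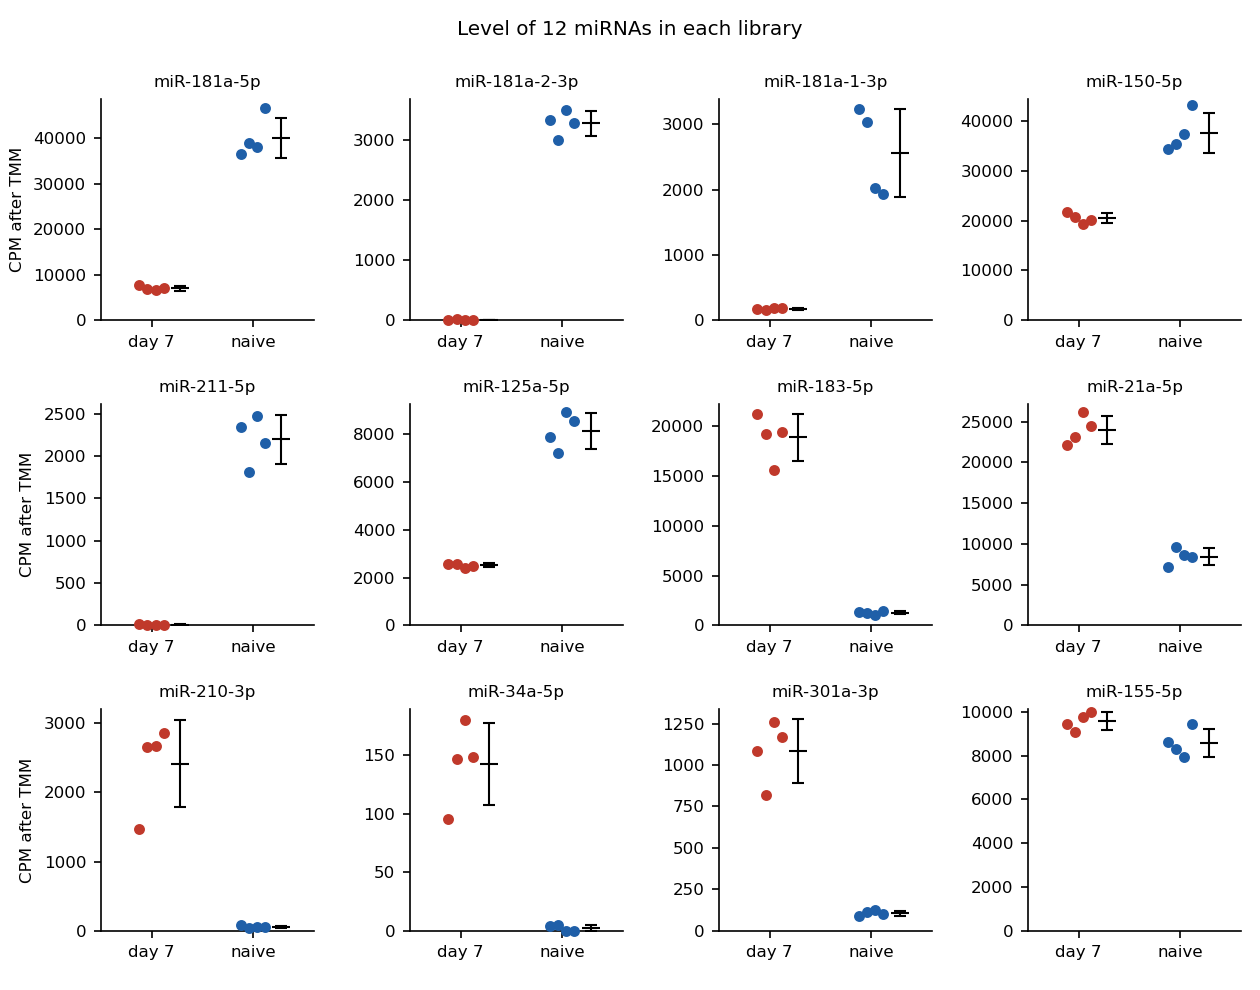
Level of 12 miRNAs in CPM after TMM, 1 point per library, with the 4 day 7 libraries in red on the left of each panel and the 4 naive libraries in blue on the right; the bar and whiskers are the mean and SD. miR-155-5p is the only one of the 12 whose groups overlap, and the day 7 points of miR-181a-2-3p and miR-211-5p lie near 0.

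Beyond the miR-181 strands, the largest falls included miRNAs best known from other tissues. miR-211-5p (chr7:64205831-64205852, within the melanocyte gene Trpm1), known from pigment cells, had 16.7, 3.19, 3.004 and 0 CPM in the day 7 libraries, against 2347, 1810.1, 2475 and 2155 CPM in the naive libraries (log2 fold change -8.63 ± 0.34, adjusted p = 3.34e-18 by edgeR). The naive values were high in all 4 libraries. miR-184-3p, known from epithelia, behaved otherwise: it had 4.16, 3.19, 0 and 0 CPM in the day 7 libraries, against 492, 30.9, 23.6 and 53.2 CPM in the naive libraries, or 2 counts at day 7 and 155 in naive cells. Naive replicate 1 alone carried most of that signal, so no ratio is given, and without naive replicate 1 or 4 the miRNA no longer passed the filter. 3 strands of the epithelial miR-200 family fell: miR-200b-5p (6.50 CPM at day 7, 148.4 CPM in naive cells, log2 fold change -4.36), miR-200b-3p (223 CPM at day 7, 1253 CPM in naive cells, log2 fold change -2.47) and miR-200a-3p (93.2 CPM at day 7, 588 CPM in naive cells, log2 fold change -2.64). miR-1249-3p (23.7 CPM at day 7, 225 CPM in naive cells, log2 fold change -3.26) and miR-5100 (116 CPM at day 7, 1103 CPM in naive cells, log2 fold change -3.24) were the remaining ones of the 10 largest falls at 100 CPM or more.

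Markers of other cells moved with the groups too. The epithelial, liver and muscle list summed to 1562 to 2001 CPM at day 7 and 3985 to 4421 CPM in naive cells, with 4 of its 7 tested members lower, 1 higher and 2 not called, beside 36.9% of all tested miRNAs called lower and 39.5% called higher. miR-200c-3p fell (469 CPM at day 7, 1359 CPM in naive cells, log2 fold change -1.53) and so did miR-203-3p (142 CPM at day 7, 540.3 CPM in naive cells, log2 fold change -1.92), whereas the liver miRNA miR-122-5p rose (712 CPM at day 7, 254 CPM in naive cells, log2 fold change 1.48). Of that list, miR-133a-3p and miR-206-3p had no count at day 7 and miR-206-3p had none in naive cells. The muscle miRNA miR-1a-3p had 3, 1, 1 and 1 counts at day 7 and 46, 3, 3 and 2 in naive cells, so naive replicate 1 stood out for it as for miR-184-3p. The myeloid markers miR-223-3p and miR-223-5p had no count at day 7 and summed to 18.6 to 42.6 CPM in naive cells. The list of red cell markers summed to 129 to 210.3 CPM at day 7 and 547 to 1332 CPM in naive cells. Most of it was miR-486a-5p and miR-486b-5p, whose counts are identical (82.99 CPM each at day 7, 365 CPM each in naive cells, log2 fold change -2.12). They stand for 1 measurement, which the sums of this list include 2 times. The defining member of the list, miR-451a, had 0 counts at day 7 and 1, 0, 2 and 0 in naive cells. The related miR-144-3p had 67 counts in naive replicate 3 and 2 to 4 in the other naive libraries. The endothelial and stromal list ran the opposite way, at 882 to 1054 CPM at day 7 and 142 to 378 CPM in naive cells, since miR-126a-3p and miR-126a-5p, from within the endothelial gene Egfl7, rose (log2 fold changes 1.998 and 2.52). miR-143-3p of that list did not pass (136 CPM at day 7, 94.8 CPM in naive cells, log2 fold change 0.51), and no listed member was at 0 in both groups. Whether other cell types take part in any of these differences was not tested. miR-142a-3p, a strand of all blood cells that does not tell T cells from the rest, averaged 2462 ± 691 CPM at day 7 and 4258 ± 577 CPM in naive cells (SD, n = 4 each) and was called lower (log2 fold change -0.79). No marker of the Th2 state itself is measured by miRNA counts.

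Among rises, the cluster of miR-183, miR-96 and miR-182 stood out by level. This cluster is known in helper T cells for acting on the transcription factor Foxo1. All 5 tested members, from a stretch of chromosome 6, were called higher by 2-fold or more, beside 30.1% of all tested miRNAs, with a median of 3.60. miR-183-5p (chr6:30169711-30169732) had 21159, 19242, 15624 and 19386 CPM in the day 7 libraries, against 1356, 1249, 1084 and 1437 CPM in the naive libraries (log2 fold change 3.88 ± 0.15, adjusted p = 2.03e-19 by edgeR). miR-182-5p had 24377, 20501, 19791 and 19797 CPM in the day 7 libraries, against 4775, 5386, 4458 and 5821 CPM in the naive libraries (log2 fold change 2.05 ± 0.12, adjusted p = 5.50e-15 by edgeR), and day 7 replicate 1 was the highest of its group. Both stood clear of the naive range. miR-96-5p (999.7 CPM at day 7, 128 CPM in naive cells, log2 fold change 2.96) and the partner strand miR-183-3p (210.4 CPM at day 7, 17.03 CPM in naive cells, log2 fold change 3.66) rose too.

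miRNAs known to be induced by antigen receptor, NF-kB, STAT or CREB signals did not move as one. Of 14 tested, 9 rose and 3 fell, beside 39.5% of all tested miRNAs called higher and 36.9% called lower, with a median of 1.01. miR-21a-5p (in an exon of Vmp1), which activated lymphocytes induce and which limits the tumour suppressor Pdcd4, had 22129, 23130.1, 26177 and 24473 CPM in the day 7 libraries, against 7103, 9594, 8656 and 8354 CPM in the naive libraries (log2 fold change 1.51 ± 0.13, adjusted p = 1.46e-11 by edgeR). Its partner miR-21a-3p rose more steeply (678 CPM at day 7, 50.4 CPM in naive cells, log2 fold change 3.75). miR-155-5p, from Mir155hg and needed for T helper responses, had 9437, 9063, 9772 and 10009 CPM in the day 7 libraries, against 8619, 8287, 7950.2 and 9439.8 CPM in the naive libraries (log2 fold change 0.16 ± 0.12, adjusted p = 0.237 by edgeR). One naive library lay inside the day 7 range, and the miRNA was called higher when scaled by library size alone (0.34) or by the STD entries (0.78), and with all locus entries kept (0.33). miR-146a-5p, which damps NF-kB activity, fell (6494 CPM at day 7, 9355 CPM in naive cells, log2 fold change -0.53), and its value turned to 0.11 with STD scaling.

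The list of the miR-17-92 cluster and its 2 paralogs, which favour lymphocyte proliferation and survival, had 13 of 20 tested members higher at day 7 and 2 lower, beside 39.5% of all tested miRNAs called higher and 36.9% called lower (median 0.67). miR-363-3p, from the X-linked paralog, had 14807, 14631, 13831 and 14759.5 CPM in the day 7 libraries, against 4135, 3739, 3961 and 3507 CPM in the naive libraries (log2 fold change 1.92 ± 0.12, adjusted p = 1.11e-14 by edgeR). The most abundant member, miR-25-3p, from within Mcm7, did not pass at 23872 ± 3016 CPM at day 7 and 27101 ± 3319 CPM in naive cells (SD, n = 4 each; log2 fold change -0.18), nor did its neighbour miR-93-5p (14243 CPM at day 7, 13079 CPM in naive cells, log2 fold change 0.12). miR-106b-3p, from the same gene, rose by 0.62 on the log2 scale. miR-93-5p was called higher with library size alone (0.302), with all locus entries kept (0.297) and with STD scaling (0.733). With STD scaling miR-25-3p was called higher too (0.434). miR-19b-3p and miR-18a-5p, made from the core cluster, rose by 1.63 and 1.58.

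In the miR-23-27-24 clusters, which are known to limit Th2 cytokine production in mouse cells, 10 of 11 tested members rose and 1 fell, beside 39.5% of all tested miRNAs called higher and 36.9% called lower (median 1.24). miR-24-3p, made from both clusters, had 13933, 12222, 12365 and 12577 CPM in the day 7 libraries, against 6723, 6269, 6508 and 6577 CPM in the naive libraries (log2 fold change 0.97 ± 0.12, adjusted p = 3.10e-08 by edgeR). miR-23a-3p had 8029.9, 8419.6, 7904 and 8290.3 CPM in the day 7 libraries, against 2831, 2967, 3109.9 and 3219 CPM in the naive libraries (log2 fold change 1.43 ± 0.10, adjusted p = 5.55e-13 by edgeR). The 2 groups of each were far apart. The chromosome 13 counterpart of miR-23a-3p, miR-23b-3p, moved less (6385 CPM at day 7, 3792 CPM in naive cells, log2 fold change 0.75), and miR-27b-3p moved least (21891 CPM at day 7, 18289.8 CPM in naive cells, log2 fold change 0.26, edgeR adjusted p = 0.0370). For miR-27b-3p the groups overlapped, and 7 of the 8 fits that leave out a library lost the call (log2 fold changes 0.17 to 0.29, all but the one without naive replicate 4). The partner strands that name their locus rose at both, with log2 fold changes of 2.999 for miR-24-1-5p on chromosome 13 and 3.65 for miR-24-2-5p on chromosome 8. miR-27a-5p, with 132 counts at day 7 and 3 in naive cells, was 34.0 times higher by ratio of counts (exact 95% binomial interval 11.4 to 167, which like the other such intervals covers counting error only).

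The families of miR-148 and miR-130 rose in full, with 7 of 7 tested guide strands higher, beside 39.5% of all tested miRNAs. Their median was 2.08, and 5 of them rose by 2-fold or more, beside 30.1% of all tested miRNAs. miR-148a-3p, known in repeatedly activated T helper cells for lowering the death factor Bim, had 5682, 5223, 5566 and 5830.4 CPM in the day 7 libraries, against 2179, 2914, 1809 and 2240.2 CPM in the naive libraries (log2 fold change 1.29 ± 0.14, adjusted p = 1.18e-09 by edgeR). miR-301a-3p, from within Ska2, had 1086, 816, 1262 and 1169.8 CPM in the day 7 libraries, against 85.7, 110.4, 122 and 101.1 CPM in the naive libraries (log2 fold change 3.36 ± 0.19, adjusted p = 2.26e-15 by edgeR). Both were clear of the naive range. The abundant relatives changed less, with log2 fold changes of 0.50 for miR-148b-3p (5473 CPM at day 7, 3859 CPM in naive cells) and 0.95 for miR-130b-3p (5067 CPM at day 7, 2615 CPM in naive cells).

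Of the X-linked miR-322 cluster, whose members miR-322 and miR-503 slow the cell cycle, 6 of 11 tested members rose, none was called lower and 5 did not pass, beside 39.5% of all tested miRNAs called higher and 36.9% called lower (median 0.83). miR-351-5p was the most abundant (2773 ± 154 CPM at day 7 and 1565 ± 267 CPM in naive cells; SD, n = 4 each; log2 fold change 0.83), and miR-503-5p stood at 738 CPM at day 7, 347 CPM in naive cells (log2 fold change 1.09). miR-450a-5p (log2 fold change -0.14) and miR-542-5p (log2 fold change -0.32), from the same cluster, did not pass and turned positive with STD scaling. In the miR-15/16 family, which restrains cyclins, miR-15a-5p (828 CPM at day 7, 378 CPM in naive cells, log2 fold change 1.13) and the X-linked miR-322-5p (584 CPM at day 7, 239 CPM in naive cells, log2 fold change 1.29) rose. The far more abundant miR-16-5p (23330.4 CPM at day 7, 20943 CPM in naive cells, log2 fold change 0.16) and miR-15b-5p (14217 CPM at day 7, 14153 CPM in naive cells, log2 fold change 0.01) did not pass. miR-16-5p was called higher with DESeq2 (0.25), with library size alone (0.34), with all locus entries kept (0.33) and without naive replicate 4 (0.22). Scaled to the STD entries, both miR-16-5p (0.775) and miR-15b-5p (0.605) were called higher.

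Other families known from T cells moved less evenly. Of the 10 let-7 guide strands, which hold back growth and cytokine genes, 6 fell and none was called higher, beside 39.5% of all tested miRNAs called higher and 36.9% called lower (median -0.42). The count depends on the scaling: 4 were called lower with DESeq2 size factors, 5 lower and 1 higher with library size alone, and 1 lower and 4 higher with STD scaling (median 0.20). Of the 6, let-7g-5p lost its call in 6 of the 8 fits that leave out a library (log2 fold changes -0.35 to -0.26, all but those without day 7 replicate 1 or naive replicate 1), with DESeq2, its size factors, library size alone, no filter and all locus entries (-0.23 to -0.14), and its value turned to 0.30 with STD scaling. let-7a-5p had 25234, 23267, 20866 and 23059 CPM in the day 7 libraries, against 29519, 40141, 37642 and 48045 CPM in the naive libraries (log2 fold change -0.75 ± 0.19, adjusted p = 0.000766 by edgeR), without overlap. let-7i-5p, which differs from it by a few bases outside the seed, had 26100.2, 21903, 22296 and 22710.3 CPM in the day 7 libraries, against 22073, 24825, 24363 and 27404 CPM in the naive libraries (log2 fold change -0.09), with overlap. let-7f-5p and let-7c-5p fell by 0.51 and 0.74 on the log2 scale. With STD scaling let-7f-5p turned to 0.11, and let-7a-5p and let-7c-5p lost their calls (-0.12 each). let-7f-5p also lost its call with DESeq2 and with its size factors (-0.42 each), and with all locus entries kept (-0.339). Reads of near-identical let-7 strands can be counted at more than 1 of them, so their separate values are uncertain. In the miR-30 family 4 of 5 fell, beside 36.9% of all tested miRNAs, led in level by miR-30d-5p (9893 CPM at day 7, 20611 CPM in naive cells, log2 fold change -1.06), while miR-30c-5p rose (11017 CPM at day 7, 6429 CPM in naive cells, log2 fold change 0.78). miR-30b-5p was among the 4 (log2 fold change -0.32), but its groups overlapped, and its value turned to 0.29 with STD scaling. Its call was lost without day 7 replicate 1 or 4 or naive replicate 1 or 2 (-0.31 to -0.28). The same call was lost with DESeq2, its size factors, library size alone, no filter and all locus entries kept (-0.24 to -0.14). In the miR-29 family, which restrains T-bet and interferon gamma, miR-29a-3p fell (6055 CPM at day 7, 7880.3 CPM in naive cells, log2 fold change -0.38, or 0.24 with STD scaling), miR-29b-3p rose with overlapping groups (471 CPM at day 7, 336 CPM in naive cells, log2 fold change 0.50) and miR-29c-3p did not pass (log2 fold change 0.23). The call of miR-29a-3p was lost with library size alone, no filter and all locus entries kept (-0.285 to -0.20). That of miR-29b-3p was lost without day 7 replicate 3 or 4 or naive replicate 1 or 2 (0.34 to 0.45). miR-29c-3p was called higher with STD scaling (0.844).

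Of 6 tested members of the families of miR-99 and miR-125, 3 fell, 1 rose and 2 did not pass, beside 39.5% of all tested miRNAs called higher and 36.9% called lower (median -0.90). miR-125a-5p had 2585, 2565, 2418 and 2500.05 CPM in the day 7 libraries, against 7856, 7183, 8916 and 8546 CPM in the naive libraries (log2 fold change -1.69 ± 0.13, adjusted p = 2.79e-12 by edgeR). miR-125b-5p, which in human CD4 T cells keeps the naive state, stood at 50.4 CPM at day 7, 201 CPM in naive cells (log2 fold change -2.06), and miR-99a-5p at 97.995 CPM at day 7, 347 CPM in naive cells (log2 fold change -1.85). miR-99b-5p, at 8304 CPM at day 7, 8389 CPM in naive cells, showed a log2 fold change of -0.01. It is encoded near miR-125a, on chromosome 17. Of the imprinted Dlk1-Dio3 cluster, 1 of 26 listed strands passed the filter, miR-127-3p (46.4 CPM at day 7, 36.7 CPM in naive cells, log2 fold change 0.27, not called), so the cluster was close to the detection limit in both groups.

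The list of miRNAs known to steer T helper subsets or their cytokines had 15 of 22 tested higher and 5 lower, beside 39.5% of all tested miRNAs called higher and 36.9% called lower. Its median was 0.79, or 0.64 with miR-210-5p, which had no count in naive cells, at its lower bound. Among its members with a count in naive cells, the largest rise was that of miR-210-3p (chr7:141221407-141221428), which the hypoxia factor HIF-1 induces and which limits Hif1a in mouse Th17 cells. It had 1478, 2658, 2671 and 2864 CPM in the day 7 libraries, against 78.2, 44.1, 47.3 and 53.2 CPM in the naive libraries (log2 fold change 5.41 ± 0.37, adjusted p = 1.28e-13 by edgeR), with day 7 replicate 1 the lowest of its group. Other members fell, among them miR-10a-5p (147 CPM at day 7, 513 CPM in naive cells, log2 fold change -1.83), known from regulatory T cells, and miR-128-3p (3239 CPM at day 7, 7459.96 CPM in naive cells, log2 fold change -1.20). These 2 were chosen after their values were seen. For miR-10a-5p the naive libraries had 273, 77, 81 and 71 counts and the day 7 libraries 40 to 49. Naive replicate 1 thus raised its naive mean and the size of its fall.

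**Figure D3:**
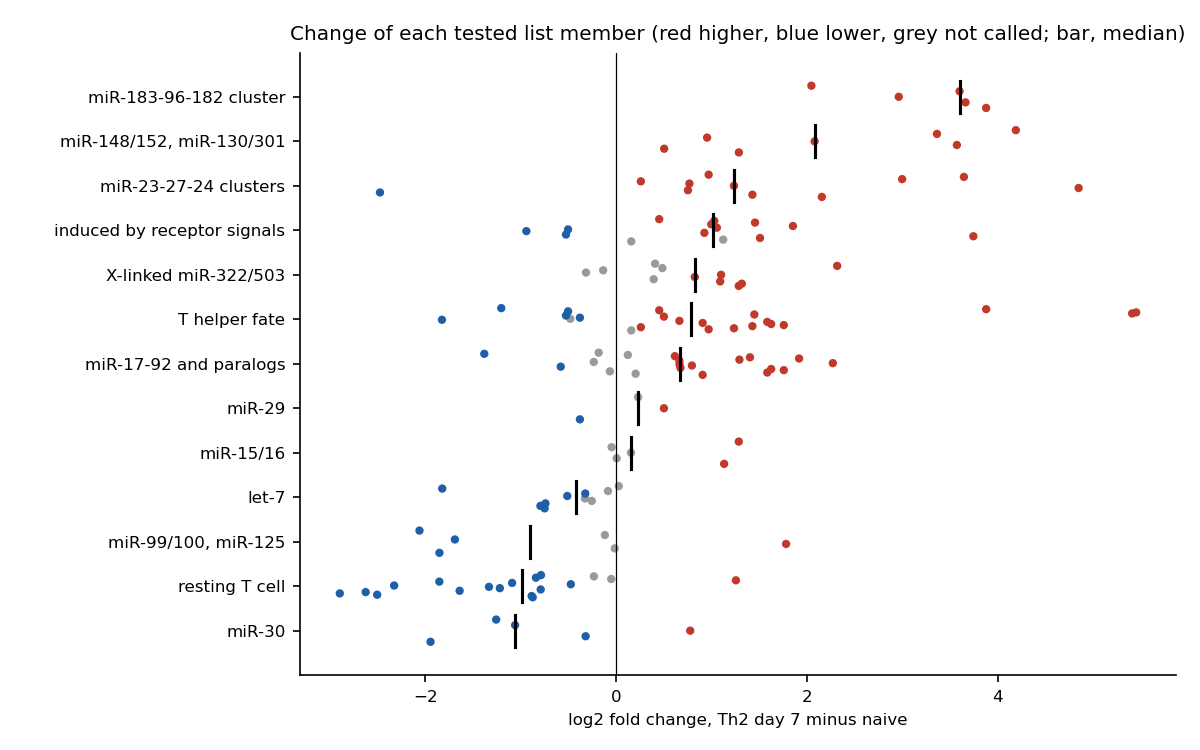
Log2 fold change (day 7 minus naive) of each tested member of 13 lists, in red where called higher, blue where called lower and grey where not called, with the median of each list as a black bar. The lists of the miR-183 cluster and of miR-148 and miR-130 lie wholly above 0, and the let-7, resting T cell and miR-30 medians lie below 0, that of let-7 only on the TMM scale and not with STD scaling (0.20).

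The 10 largest called increases at 100 CPM or more were mostly of miRNAs that were rare in naive cells, at 0 to 197 CPM. miR-1968-5p (chr8:13189068-13189091, within Grtp1) had 124.9, 133.8, 150.2 and 127 CPM at day 7 and no count in the 4 naive libraries, so that it was at least 8.39-fold higher against the floor of the naive library with the highest floor. miR-12188-5p (chr17:25160503-25160526, in an exon of Clcn7) had 117, 137, 126 and 114 CPM at day 7 and also no naive count, at least 7.74-fold higher. The p53 target miR-34a-5p had 177 counts at day 7 and 2 in naive cells, a ratio of 68.5 (exact 95% binomial interval 18.7 to 570). miR-6538 (chr12:26414970-26414988, within Rnf144a) had 1761, 2607, 2076 and 2333 CPM in the day 7 libraries, against 7.45, 8.83, 27.6 and 21.3 CPM in the naive libraries (log2 fold change 7.05). miR-5121 (chr7:45126925-45126945, within the ribosomal protein gene Rpl13a) stood at 3954 CPM at day 7, 159 CPM in naive cells (log2 fold change 4.64), miR-6240 at 3658 CPM at day 7, 181.1 CPM in naive cells (log2 fold change 4.34), miR-1949 at 3789.9 CPM at day 7, 197 CPM in naive cells (log2 fold change 4.26) and miR-2137 at 340.0 CPM at day 7, 11.9 CPM in naive cells (log2 fold change 4.67). No function in T cells is given here for these 4.

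Strands with the same seed did not always move together. RefSeq gave a mature sequence for 306 of the 382 tested miRNAs, and 98 of them fell into 34 seeds with at least 2 tested strands. Of these 34 seeds, 16 had called members that were all higher, 9 all lower and 8 both, and 1 had none called. Among all tested miRNAs 39.5% were called higher and 36.9% lower. Under the seed of miR-125, miR-125a-5p and miR-125b-5p fell while miR-351-5p, whose sequence after the seed is unlike theirs, rose (log2 fold changes -1.69, -2.06 and 0.83). miR-146b-5p rose (343 CPM at day 7, 181.9 CPM in naive cells, log2 fold change 0.93) against the fall of miR-146a-5p. miR-212-3p rose (219 CPM at day 7, 59.8 CPM in naive cells, log2 fold change 1.85), while miR-132-3p, made from the same CREB-induced transcript, fell (894 CPM at day 7, 1271 CPM in naive cells, log2 fold change -0.50, edgeR adjusted p = 0.0406). The fall of miR-132-3p lost its call without day 7 replicate 1 (-0.35), day 7 replicate 2 (-0.51) or naive replicate 3 (-0.41). The call was also lost with DESeq2, its size factors, library size alone and all locus entries kept (-0.43 to -0.32). With STD scaling the value turned to 0.125.

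Summing counts over each seed gave 243 tested seed totals, of which 110 (45.3%) were higher at day 7 and 74 (30.5%) lower. The let-7 seed GAGGUAG was the largest in both groups, at 19.2, 17.3, 17.3 and 17.7% of miRNA counts at day 7 and 19.6, 22.2, 21.6 and 23.3% in naive cells (-0.46 on the log2 scale after TMM, edgeR adjusted p = 0.00296). The miR-26 seed UCAAGUA held 4.46% at day 7 and 5.69% in naive cells (-0.53), and both of these log2 values turned positive with STD scaling, while the let-7 seed lost its call with DESeq2 size factors (-0.36). The miR-15/16 seed AGCAGCA held 4.60% at day 7 and 3.73% in naive cells, which did not pass after TMM (0.13). The seed AUUGCAC of miR-25, miR-92 and miR-363 held 4.84% at day 7 and 3.46% in naive cells (0.30, edgeR adjusted p = 0.0247), and 6 of the 8 fits that leave out a library lost that call (0.22 to 0.30, all but those without day 7 replicate 3 or naive replicate 4). With TMM recomputed on the seed totals its log2 value was 0.066 (edgeR adjusted p = 0.761). Within it miR-363-3p and miR-92a-3p rose and miR-92b-3p fell (log2 fold changes 0.79 and -1.08 for the last 2). The miR-181 seed showed the steepest fall of the 5 largest totals (-2.52 with SE 0.13, edgeR adjusted p = 9.71e-17).

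The 2 arms of a hairpin share a precursor, so their ratio is free of the scaling of libraries. Both arms were tested for 94 hairpins. limma called the 3p to 5p ratio higher at day 7 for 24 (25.5%) and lower for 28 (29.8%). Both arms were called in the same direction for 52 hairpins and in opposite directions for 5, namely miR-23b, miR-674, miR-671, miR-877 and miR-1306. The 2 largest fitted changes were in miR-27a and miR-23b. In miR-27a the 5p arm made up 1.74% of its counts at day 7 (132 counts, with 7476 of the 3p arm) and 0.124% in naive cells (3 counts, with 2425), a change of -3.25 in the log2 ratio of 3p to 5p (SE 0.42, limma adjusted p = 3.27e-07). Naive replicate 1 had no count of the 5p arm, and without it the change was -2.79, smaller than that of miR-23b (3.25), while a pseudocount of 2 gave -2.07 for miR-27a and 2.67 for miR-23b. miR-23b, from the paralogous cluster, moved the opposite way: its 5p arm was 0.116% at day 7 and 1.16% in naive cells (3.16, limma adjusted p = 1.15e-06), on 9 counts of that arm at day 7 and 41 in naive cells.

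miR-296, miR-98 and miR-18b were the next by size. The 5p arm of miR-296, from the imprinted Gnas locus, reached 16.2% at day 7 and 2.92% in naive cells (-2.74). miR-98 stayed almost wholly 5p (99.3% at day 7 and 99.9% in naive cells), with 91 counts of its 3p arm at day 7 and 14 in naive cells (log2 ratio change 2.68). Naive replicate 4 had no count of the 5p arm of miR-296 or of the 3p arm of miR-98, and without it the changes were -2.08 and 1.94. miR-18b changed its major arm. Its 5p arm ranged over 63.3% to 80% in day 7 libraries and 17.6% to 39.5% in naive libraries (-2.57, limma adjusted p = 7.86e-06). The more abundant arm, judged by the mean of the library shares, was recorded as different between the groups for 9 hairpins. miR-147 is among them only because no naive mean share could be formed, so it is not read as a switch. It had 1 count of its 5p arm and 3 of its 3p arm in naive cells. By summed counts miR-669o differed as well (5p share 49.7% at day 7 and 53.3% in naive cells). Its 3p counts are identical to those of miR-669a-3p and cannot be assigned to a hairpin, so this share may not describe a single precursor. The same limit holds for the called ratio of miR-297a, whose 3p counts are identical to those of miR-297b-3p and miR-297c-3p. Of the 9 hairpins recorded, 7 had a called ratio, and miR-147 was not one of these. For miR-151, miR-18b and miR-450b the 5p arm was the larger one in every day 7 library and the smaller one in every naive library. For the other 4 one group lay close to even or on both sides of it: the 5p share ranged over 47.4% to 51.5% at day 7 for miR-1306 and 40% to 54.8% at day 7 for miR-33, and over 47.7% to 59.2% in naive cells for miR-467d and 28.6% to 57.7% in naive cells for miR-3061. miR-151 was the most deeply counted of the 7. Its 5p arm ranged over 60.6% to 69.6% at day 7 and 41.5% to 44.99% in naive cells, while both arms fell (log2 fold changes -1.28 and -2.49). The call for miR-210 rests on the pseudocount of 0.5, since its 5p arm had no count in naive cells, and is not read here.

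**Figure D4:**
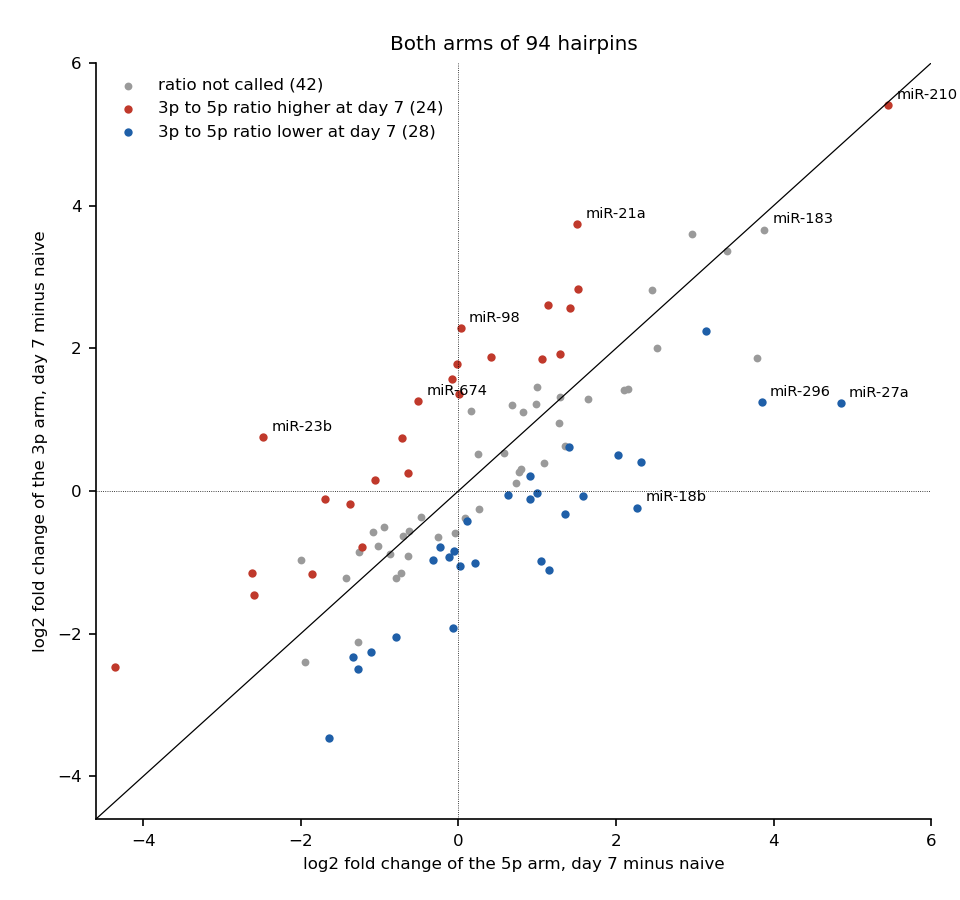
Log2 fold change (day 7 minus naive) of the 5p arm on the x axis and the 3p arm on the y axis for 94 hairpins with both arms tested; the diagonal marks equal change, red points have a 3p to 5p ratio called higher at day 7 and blue points one called lower. miR-23b lies above the diagonal at -2.48 and 0.75, and miR-27a below it at 4.85 and 1.24.

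Neighbouring hairpins can be cut from one transcript. Grouping hairpins within 10000 bases on one strand, and leaving out strands made at several loci, gave 23 clusters with at least 2 tested strands. Called members were all higher in 9 clusters, all lower in 6 and of both directions in 7, and 1 cluster had none called. These counts stand beside 39.5% of all tested miRNAs called higher and 36.9% called lower. The X-linked cluster of miR-188, miR-362, miR-500, miR-501 and miR-532 rose throughout, with 7 of 7 strands higher and log2 fold changes of 1.21 to 3.36. The miR-296/298 pair rose at 1.24 to 3.85 and the miR-221/222 pair, which lowers the cell cycle inhibitor p27, at 0.998 to 1.46. The let-7b and let-7c-2 pair was split, as both let-7b strands fell (log2 fold changes -0.79 and -2.04) while let-7c-2-3p rose (log2 fold change 1.94). let-7c-2-3p has the same sequence as let-7a-1-3p from chromosome 13, however, and their near-identical values cannot be assigned to a locus. The miR-30c-1 and miR-30e pair on chromosome 4 fell in all 3 locus-specific strands (log2 fold changes -0.94, -1.26 and -0.86), although miR-30c-5p, which is also made on chromosome 1, rose.

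**Figure D5:**
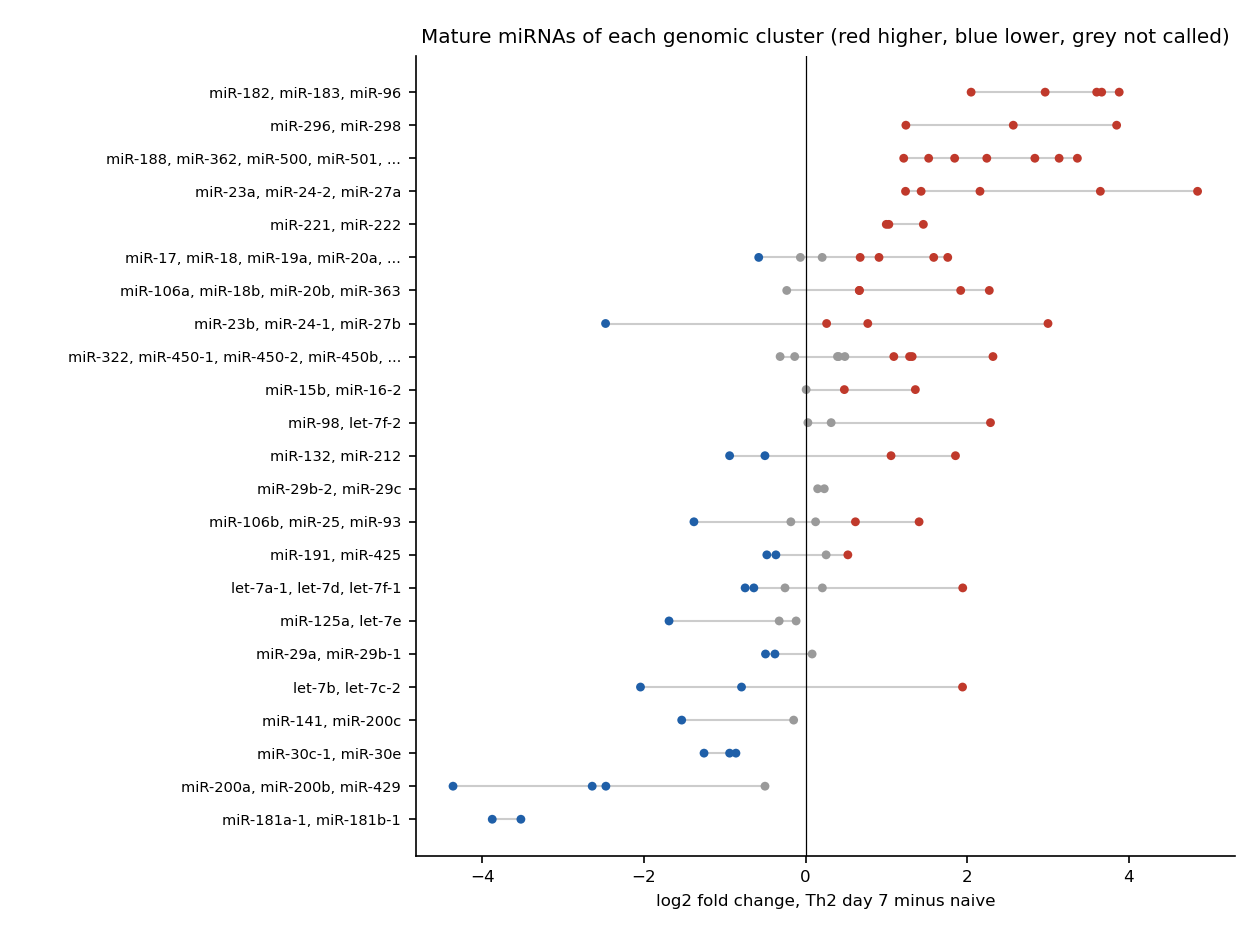
Log2 fold change (day 7 minus naive) of the tested strands of 23 genomic clusters, ordered by their median, with strands called higher in red, called lower in blue and not called in grey. The miR-183 cluster lies at 2.05 to 3.88 and the miR-181a-1/b-1 cluster at -3.88 to -3.52, whereas the miR-23b cluster spans -2.48 to 2.999.

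The same step in AGO134 knockout cells of the same experiment (4 day 7 and 4 naive libraries) served to ask whether the WT change differed from theirs. The naive knockout libraries held 64264 to 195122 miRNA counts and the day 7 ones 125803 to 190976, fewer than the WT libraries of the same stage. Depth thus moved with genotype, and its part in the differences was not tested. Of the 292 miRNAs called in WT cells, 289 had the same sign in knockout cells and 261 were also called there. The difference between the changes itself was called for 9 of 382 (2.36%), 2 with a more positive change in WT cells and 7 with a more negative one; 45 had an unadjusted p under 0.05. On the log2 scale miR-182-5p moved by 2.05 in WT and 2.97 in knockout cells (difference -0.93 with SE 0.17, edgeR adjusted p = 0.00226). miR-351-5p moved by 0.83 in WT and 1.76 in knockout cells (difference -0.94, edgeR adjusted p = 0.00389). miR-15b-3p, the partner strand of a hairpin in Smc4, rose by 1.36 in WT cells and moved by 0.14 in knockout cells (difference 1.22, edgeR adjusted p = 0.00643). miR-1839-3p rose by 1.88 in WT and 3.56 in knockout cells (difference -1.68, edgeR adjusted p = 0.0306), on 10 counts in naive knockout cells. Scaling by library size alone left 3 calls and STD scaling 1, that of miR-182-5p.

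Set against CD4Cre;R26LSLeYFP cells without a floxed Ago2 allele (3 libraries at day 5 of Th2 culture, by the labels, and 3 naive), the WT change could be compared only at low depth. Their day 5 libraries held 39794 to 58357 miRNA counts and their naive libraries 596 to 8643, and the 2 changes also differ in time and experiment. In the fit over all 36 libraries, 274 miRNAs were called in WT cells, of which 193 had the same sign in Cre cells. That was so for 132 of the 150 that rose and 61 of the 124 that fell. The difference was called for 49 of 376 (13%), 9 more positive in WT cells and 40 more negative, with a median difference over all tested of -1.69. With STD scaling 121 were called. miR-150-3p fell by 0.84 in WT cells and by 4.83 in Cre cells (difference 3.996, edgeR adjusted p = 1.62e-11). let-7d-5p moved by -0.21 in WT cells and 2.45 in Cre cells (difference -2.66, edgeR adjusted p = 1.04e-08). miR-146a-5p moved by -0.48 in WT cells and 3.51 in Cre cells (difference -3.99, edgeR adjusted p = 3.94e-06), on 8 counts in naive Cre cells. miR-181d-3p, also called, had 67 counts in Cre cells at day 5 and none in naive Cre cells. Depth and time move with this difference, and their part in it was not tested.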

How the data were processed

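The deposited values are whole-number counts per mature miRNA locus, which the authors gave in 1 file per library, per the file headers. The submitters' processing notes name GRCm38 as genome. Which aligner and counter were used, and whether strand or molecular identifiers entered the counting, was not stated in the sources at hand. Each file held 2119 entries. The 9 named STD were left out of library sizes and tests, and for the 82 names with several locus entries the entry with the highest total over all libraries was kept, giving 1966 names. No pair of replicates agreed within sampling noise (lowest chi-square per degree of freedom 2.85 over 12 pairs).

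Counts were tested with edgeR 4.0.16 in R 4.3.3 (TMM, filterByExpr, quasi-likelihood test, a mean per group, Benjamini-Hochberg, called under 0.05). The fit used the 22 libraries of the AGO1/3/4 experiment, whose 6 groups share 1 estimate of spread, and all 36 for the Cre comparison. SEs are those implied by the test. Seed totals used the TMM factors of the miRNA fit, a choice made after seeing the data. Arm ratios were log2((3p + 0.5)/(5p + 0.5)), tested with limma 3.58.1. Diversity used exact permutation tests (scipy 1.17.1). Ratios on 1 to 3 counts have exact binomial intervals, and folds against 0 counts use a floor of 3 counts per library after TMM. Scripts were tested on simulated data. Sequences are RefSeq's, host genes GENCODE's, both on GRCm38. Host genes were sought only on the strand of the hairpin.

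The comparison, the lists of miRNAs and the rule for naming were chosen with earlier results of these data known. The rule took the 10 most abundant miRNAs per group, the 10 largest called changes each way at 100 CPM or more, up to 4 abundant members of each list, the 5 largest seed totals, the 5 largest called arm ratios and up to 4 per difference of changes. Further list members, members of shared seeds, clusters and switched arms were chosen after their values were seen. Alternatives were DESeq2 1.42.0, its size factors in edgeR, library size only, STD scaling, no filter, only the 8 libraries, a replicate block, all locus entries, a pseudocount of 2, a minimum of 50 counts per arm, thinned libraries, and leaving out each replicate. Same-numbered samples showed no sign of pairing (correlations of same-numbered deviations -0.31 to 0.02). Differently numbered samples ranged from -0.26 to 0.32, so this check cannot settle whether samples share an animal.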

Additional observations from a re-analysis of the deposited data

Results flagged for a closer look

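Of 170 sets of 4 libraries examined for the values named above, 9 held a library far from the other 3, where chance gives about 1 in 20. Day 7 replicate 1 was the highest for miR-16-5p (25509 CPM), miR-182-5p (24377 CPM) and miR-99a-5p (154 CPM), and the lowest for miR-210-3p (1478 CPM) and for the Shannon index (6.54 bits). Day 7 replicate 4 was the highest for miR-5100 (142 CPM). Among naive libraries, replicate 1 was the highest for miR-184-3p (492 CPM), and replicate 4 was the highest for miR-23b-3p (4475 CPM) and the lowest for miR-1839-3p (47.9 CPM).

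The WT change differed from the AGO134 knockout change for miR-182-5p (-0.93 on the log2 scale), miR-351-5p (-0.94), miR-15b-3p (1.22) and miR-1839-3p (-1.68), by the edgeR test of the difference. It differed from the Cre change for miR-150-3p (3.996), let-7d-5p (-2.66), miR-146a-5p (-3.99) and miR-181d-3p (-13.06). The last is a fitted value against naive Cre libraries with 0 counts, depends on the prior count and is no bound.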

How the results depend on the processing

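The number of miRNAs called at day 7 was within 1.5 times of 292 under every alternative run, except that scaling to the STD entries gave 70 lower miRNAs and 32 lower seed totals. Leaving out each replicate gave 280 to 292 called miRNAs (144 to 151 higher, 133 to 141 lower), 176 to 183 seed totals and 43 to 52 arm ratios. The 3 diversity measures kept their direction without each replicate (differences of 0.182 to 0.259 bits, -6.896 to -5.195 percentage points and 3.667 to 4.917 miRNAs), but 3 against 4 libraries cannot pass the threshold of the exact permutation test. With a mean of at least 50 counts for both arms, 25 arm ratios were called, 11 higher and 14 lower, since fewer hairpins were tested. For the difference from the AGO134 knockout change, DESeq2 size factors and no filter each gave 4 higher; library size gave 3 (1 higher, 2 lower); STD scaling gave 1 (0 higher, 1 lower). For the difference from the Cre change, DESeq2 size factors gave 19 higher and 25 lower, no filter gave 25 lower, and STD scaling gave 121 (2 higher, 119 lower). Apart from fewer hairpins or genes tested, the cause was not tested.

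With STD scaling the sign turned for let-7d-5p (0.366), let-7f-5p (0.113), let-7g-5p (0.297), let-7i-5p (0.534), miR-132-3p (0.125), miR-146a-5p (0.109), miR-191-5p (0.150), miR-25-3p (0.434), miR-26a-5p (0.139), miR-29a-3p (0.241), miR-30b-5p (0.286), miR-450a-5p (0.488), miR-542-5p (0.289), miR-99b-5p (0.602), the seeds GAGGUAG (0.162) and UCAAGUA (0.082), and the let-7 list median (0.205). Values near 0 turned elsewhere too. let-7i-5p gave 0.009 with DESeq2 and with its size factors, 0.088 with all locus entries, 0.096 with library size and 0.016 with no filter. miR-450a-5p gave 0.037 with all locus entries and 0.047 with library size. miR-99b-5p gave 0.078, 0.078, 0.160, 0.167 and 0.087 under those 5 settings, 0.007 with only the 8 libraries, and -0.085 to 0.044 without each replicate in turn. miR-15b-5p gave -0.105 to 0.063 without each replicate in turn. The seed AGCAGCA gave -0.111 with TMM recomputed on the seed totals, an alternative chosen after seeing the data.

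With a replicate block on the 8 libraries 262 miRNAs (133 higher, 129 lower), 163 seed totals and 55 arm ratios were called, against 271 miRNAs without the block on the same libraries, and miR-99b-5p turned to 0.005. No other named call changed sign. Same-numbered samples did not deviate together (correlations -0.021, -0.313, 0.018 and -0.122). miR-184-3p could not be fitted without naive replicate 1 or 4, as it then missed the filter. Depth limits miRNAs under about 15 CPM.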

Other observations

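Over the 8 libraries 1053 mature names had at least 1 count and 416 had a count in all 8. Another 209 were counted only at day 7 and 120 only in naive cells, where the day 7 libraries were the deeper ones on average. miR-3963, chosen after its value was seen, was just outside the 10 most abundant miRNAs of naive cells and fell, with 6273, 6798, 6711 and 6608 CPM in the day 7 libraries, against 21857, 22106, 20516 and 25345 CPM in the naive libraries (log2 fold change -1.77 ± 0.13, adjusted p = 3.65e-13 by edgeR). No function is given here for it.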
